A study of Mus musculus with 2 samples.

Results

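SNARE proteins and the partners that control them in secretion were followed in mouse bone marrow progenitors after the transcription factor Hoxa9 was withdrawn. Members were the rows of the authors' deposited table named Vamp, Stx, Stxbp, Snap, Syt or Sytl followed by a digit, together with Unc13d. This gave 57 of the 23235 gene rows. They comprised 7 Vamp genes, 15 syntaxins, 5 Snap genes, 7 syntaxin binding proteins, 17 synaptotagmins, 5 synaptotagmin-like proteins and Unc13d. Snap91 was matched by its name alone, since it encodes a clathrin adaptor of synaptic vesicles and no SNARE.

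There were 2 samples. In EtOH, cells grew for 72 h in ethanol, the solvent, without 4-hydroxytamoxifen. In 4OHT, cells were kept for the same 72 h in 100 nM 4-hydroxytamoxifen, the state in which they had been transformed. Cells of both conditions came from lineage-depleted bone marrow of C57B6 mice, carried the MIGR1-HA-Hoxa9-ER retrovirus together with the retrovirus MIGR1-Flag-Meis1, grew with IL3 and were washed 3 times before the 72 h. Hoxa9-ER is a fusion that stays in the nucleus while 4OHT is present, so EtOH removes nuclear Hoxa9 activity but not the Meis1 virus, and both viral genes are driven by the vector and not by the cells' own promoters. The comparison addresses which genes change when transformed progenitors lose nuclear Hoxa9. The 2 samples also differ in the drug 4OHT itself, so its own effects and those of Hoxa9 loss cannot be told apart.

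Membrane fusion in a cell is carried out by SNARE proteins. A vesicle carries an R-SNARE, mostly of the Vamp family, and the target membrane carries Q-SNAREs, which are syntaxins and SNAP proteins. The helices of both sides zip together and pull the membranes into contact. Sec1/Munc18 proteins clasp syntaxins and steer this assembly, synaptotagmins can couple it to calcium, and synaptotagmin-like proteins tether granules that carry the GTPase Rab27. In blood cells this machinery releases the granules of neutrophils, mast cells, platelets and killer lymphocytes. In humans, inherited loss of STX11, STXBP2 or UNC13D impairs granule release by cytotoxic lymphocytes and causes familial haemophagocytic lymphohistiocytosis.

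Levels are FPKM, fragments scaled to transcript length and library size, so that levels of different genes can be set beside each other. Each condition held 2 biological replicates but gave 1 FPKM value per gene, so no level below has a replicate error and no test across conditions was made here. A gene is said to have risen or fallen where its q-value in the authors' deposited table, from Cuffdiff, was at most 0.05. Each change is the log2 ratio (FPKM EtOH + 1)/(FPKM 4OHT + 1). On this scale a positive value means more RNA in EtOH, and changes of genes with few fragments come out smaller than their plain ratios. Among long genes without introns, the smallest FPKM above 0 times the length in kilobases had a median of 0.0222 in EtOH and 0.0204 in 4OHT. If that step is 1 fragment, a 1 kb transcript at 1 FPKM rests on about 45.0 fragments in EtOH and 49.0 in 4OHT. Depth is otherwise unknown, because FPKM values give no read totals.

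Withdrawal of 4OHT was accompanied by higher RNA of the syntaxins Stx2, Stx3 and Stx11 and of some syntaxin partners. These syntaxins were grouped with the plasma membrane only after their values had been seen. Stx4a, the plasma membrane syntaxin of highest level, did not pass the test, with 49.1 FPKM in EtOH and 48.5 FPKM in 4OHT. Snap23, Stxbp3a and Unc13d did not pass, nor did the vesicle R-SNAREs and the syntaxins of internal membranes. Stx3 and Stx11, syntaxins of granule exocytosis, were 2.92-fold and 2.96-fold higher in EtOH. Stxbp2, the Munc18 protein that binds both, was 1.30-fold higher. The amisyn gene Stxbp6 and the synaptotagmin gene Syt11 fell. The summed level of 7 neutrophil markers, all called higher, was 16230 FPKM in EtOH and 127 FPKM in 4OHT, and the part of this shift in the members' changes was not tested. In bulk RNA, more cells of a type and more RNA per cell cannot be told apart. By the authors' deposited table, 33 of the 57 members were tested and 10 were called, 7 higher and 3 lower in EtOH. This is 30.3% of the tested members, against 22.5% of all 11865 tested rows. The 7 that were higher make 21.2% of the tested members, against 12.0% of all tested rows, and the 3 that were lower make 9.09%, against 10.5%. These shares are descriptions, and no test of the family against other genes was made. At a q-value of at most 0.01, 5 members were higher and 2 lower, against 9.41% and 6.68% of all tested rows (16.1% in either direction). With a ratio of at least 1.5 added to the first rule, 5 were higher and 3 lower, against 9.89% and 7.23% (17.1% in either direction). At an unadjusted p-value of at most 0.05 these counts were 10 and 3, against 15.6% and 15.8% (31.5% in either direction). Of the 57 members, 30 reached 1 FPKM in either condition, and 1 of these, Stxbp6, did so in 4OHT but not in EtOH. Their median log2 change was 0.08, beside -0.06 over all 11022 rows of at least 1 FPKM. When EtOH values were scaled to the FPKM sum of the 4OHT sample, it turned to -0.04, beside -0.16 over all these rows. The median over all 57 members was 0.00, and 24 of them were not tested and lay at or under 0.300 FPKM, with 8 of them listed at 0 in both conditions. At least 2-fold changes on the log2(FPKM + 1) scale were seen in 3 of the 30, with Stx3 and Stx11 higher, against 5.11% of all such rows, and Stxbp6 lower, against 2.38%.

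The sequences upstream of Stx3, Stx11 and Stxbp2 are shown because the Stxbp2 protein binds both syntaxins and all 3 genes were higher. Each run holds the 250 bases before the annotated start, 5′ to 3′ on the gene's strand, from RefSeq on build GRCm38.p6, which is not the build of the FPKM table. Stx3 lies at chr19:11819404-11819653 on the minus strand, Stx11 at chr10:12964260-12964509 on the minus strand and Stxbp2 at chr8:3630859-3631108 on the plus strand.
Stx3: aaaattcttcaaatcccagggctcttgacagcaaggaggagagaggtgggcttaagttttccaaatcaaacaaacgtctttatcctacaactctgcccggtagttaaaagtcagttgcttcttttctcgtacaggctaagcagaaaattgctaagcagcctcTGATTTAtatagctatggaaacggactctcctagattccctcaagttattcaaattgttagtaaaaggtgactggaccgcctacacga
Stx11: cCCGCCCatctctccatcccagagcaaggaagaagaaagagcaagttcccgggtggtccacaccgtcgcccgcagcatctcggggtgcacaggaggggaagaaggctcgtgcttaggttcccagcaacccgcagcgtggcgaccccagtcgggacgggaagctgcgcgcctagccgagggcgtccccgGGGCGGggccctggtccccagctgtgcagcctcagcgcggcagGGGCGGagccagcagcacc
Stxbp2: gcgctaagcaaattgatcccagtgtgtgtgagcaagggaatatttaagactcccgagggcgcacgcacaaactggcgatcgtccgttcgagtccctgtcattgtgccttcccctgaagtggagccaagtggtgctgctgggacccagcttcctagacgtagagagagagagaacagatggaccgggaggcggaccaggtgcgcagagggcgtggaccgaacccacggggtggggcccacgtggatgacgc
Capitals mark matches on either strand to any of 4 short motifs, GAGGAA (the core bound by PU.1), TTGCNNAA (C/EBP type), TGATTNA (Hox-Pbx type) and GGGCGG (GC box). Stx3 held a TGATTNA match that starts 88 bases before the gene's start. Stx11 held 3 GC boxes, starting 249, 62 and 19 bases before its start. The Stxbp2 window held none of these letters. No matches overlapped. Over all 32851 promoters of the same table, 23.3% held GAGGAA, 9.56% TTGCNNAA, 9.11% TGATTNA and 32.7% GGGCGG. The table had promoters for 42 of the members, 53 in all. Among the 9 promoters of called members, GAGGAA was found in 1, TTGCNNAA in 1, TGATTNA in 2 and GGGCGG in 4. Among the 44 promoters of the other members these were found in 11, 7, 4 and 26. A match of letters is a description of the window and shows neither binding nor its absence.

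**Figure D1:**
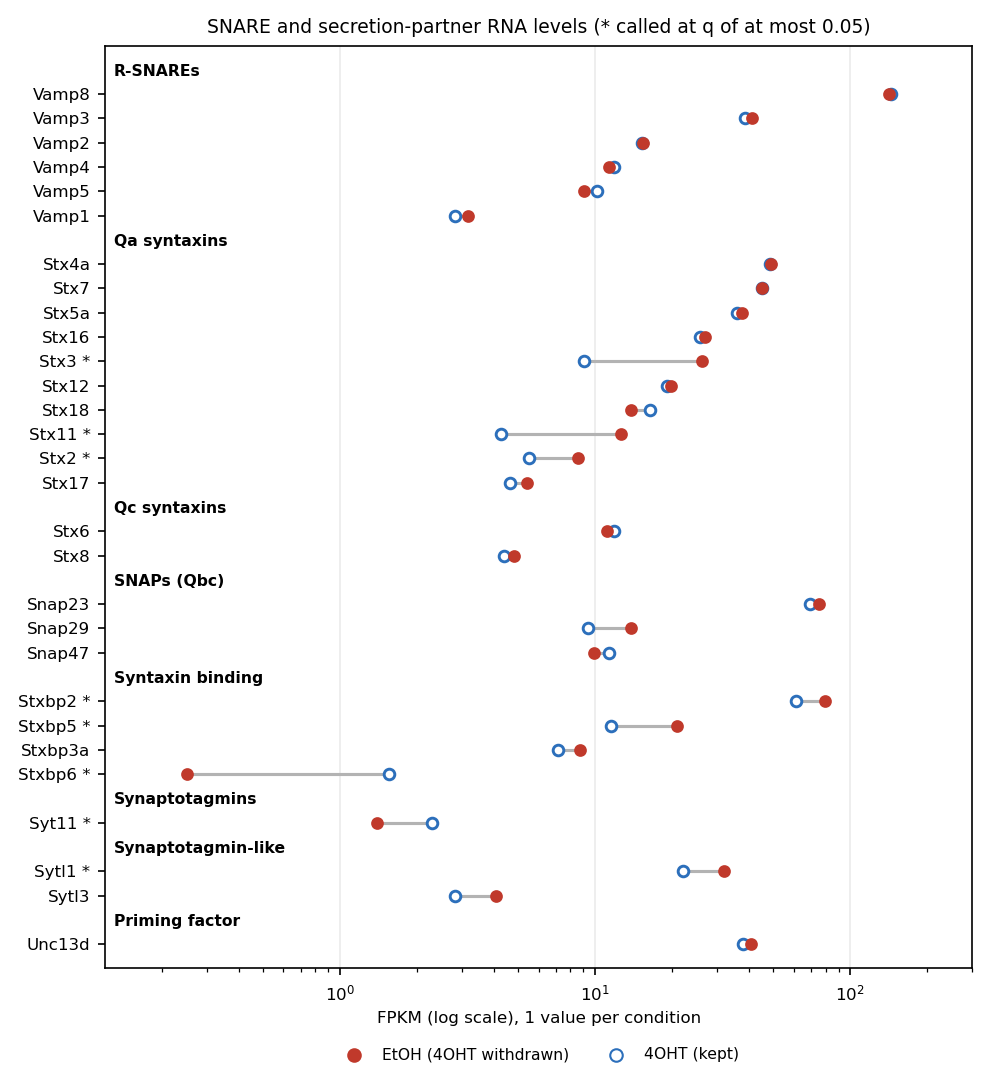
FPKM on a log axis for 29 members of at least 1 FPKM in either condition, by class, with EtOH as filled red points and 4OHT as open blue points and 1 value per condition. Stars mark members called at q of at most 0.05. Stx3 stands at 26.2 in EtOH and 9.003 in 4OHT, while the 2 points of Vamp8, at 142 in EtOH and 145 in 4OHT, almost coincide.

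R-SNAREs of the vesicle side had levels in EtOH close to those in 4OHT. Cuffdiff called 0 of the 6 tested, against 22.5% of all tested rows. The count was also 0 at an unadjusted p-value of at most 0.05, against 31.5%. The log2 changes of these R-SNAREs lay between -0.16 and 0.13, and their lowest q-value in the authors' deposited table was 0.661. Vamp8, the R-SNARE of secretory granules and late endosomes in mast cells and platelets, stood at 142 FPKM in EtOH and 145 FPKM in 4OHT. It was the highest member of the whole family in both conditions and held 63.9% of the summed R-SNARE FPKM in EtOH and 64.8% in 4OHT. Vamp3, cellubrevin of recycling endosomes, stood at 41.2 FPKM in EtOH and 38.6 FPKM in 4OHT. The third by level was Vamp2, the synaptobrevin best known from synaptic vesicles, with 15.4 FPKM in EtOH and 15.3 FPKM in 4OHT. Vamp3 and Vamp2 thus stood well below Vamp8. Vamp4, of the trans-Golgi network, had 11.3 FPKM in EtOH and 11.9 FPKM in 4OHT. Its level was close to that of Vamp5, described first in muscle, with 9.04 FPKM in EtOH and 10.2 FPKM in 4OHT. The lowest that was detected was Vamp1, a synaptobrevin of nerve and muscle, with 3.18 FPKM in EtOH and 2.81 FPKM in 4OHT. The order of these 6 levels was the same in EtOH and in 4OHT. Vamp5 and Vamp8 are neighbours on chromosome 6, with 4.75 kb between their loci (mm9), and differed more than 10-fold in level in both conditions. Vamp7, an R-SNARE of lysosomes, was listed at 0 in both conditions, and its row is placed on an unassembled part of the X chromosome.

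Of the 10 tested Qa syntaxins, the type that joins a vesicle's R-SNARE at the target membrane, 3 were called higher and 0 lower, against 12.0% and 10.5% of all tested rows. All 3 fell in a group of 7 syntaxins known from the plasma membrane and its granule docking sites. This group was formed after the values had been seen. Of its 7 genes, 4 were tested and 3 rose, a count that is a description, since the grouping followed the values. Stx3, at chromosome 19, 11849608 to 11893893 (mm9), had 26.2 FPKM in EtOH and 9.003 FPKM in 4OHT. This is a log2 change of 1.45 (Cuffdiff q = 3.56e-14, authors' deposited table). In mast cells and in human neutrophils Stx3 protein serves granule exocytosis. It was the family's rank 11 by level in EtOH and rank 20 in 4OHT. Stx11, at chromosome 10, 12659787 to 12684065 (mm9), had 12.6 FPKM in EtOH and 4.26 FPKM in 4OHT. Its log2 change was 1.37 (Cuffdiff q = 5.06e-08, authors' deposited table). Stx11 lacks a transmembrane helix and is largely a syntaxin of immune cells. Stx2, a plasma membrane syntaxin that also acts in cell division and platelet secretion, lies at chromosome 5, 129490436 to 129514439 (mm9). It had 8.57 FPKM in EtOH and 5.53 FPKM in 4OHT. Its log2 change was 0.55 (Cuffdiff q = 0.00851, authors' deposited table).

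Stx4a, the plasma membrane syntaxin of most cell types, did not pass, with 49.1 FPKM in EtOH and 48.5 FPKM in 4OHT (q = 0.972 in the authors' deposited table). It was the syntaxin with the highest level in both conditions. Stx4a held 50.9% of the summed FPKM of these 7 syntaxins in EtOH and 71.8% in 4OHT. Stx3 held 27.2% in EtOH and 13.3% in 4OHT, and Stx11 held 13.1% in EtOH and 6.29% in 4OHT. The sum over the 7 was 96.5 FPKM in EtOH and 67.7 FPKM in 4OHT. Stx1a, best known from nerve terminals, was near the floor of detection. It was listed at 0 in EtOH, with 0.0870 FPKM in 4OHT, and was not tested by the authors. Stx19 was listed at 0 in both conditions.

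Syntaxins of endosomes, the Golgi apparatus and the endoplasmic reticulum differed little between conditions. Cuffdiff called 0 of 8, against 22.5% of all tested rows. The count was also 0 at an unadjusted p-value of at most 0.05, against 31.5%. These 8 were set apart from the plasma membrane syntaxins after the values had been seen, so both counts are descriptions. The log2 changes of these syntaxins lay between -0.23 and 0.19, and the lowest Cuffdiff q among them was 0.420 in the authors' deposited table. Stx7, of late endosomes, had 45.3 FPKM in EtOH and 45.1 FPKM in 4OHT. The Golgi syntaxin Stx5a had 37.6 FPKM in EtOH and 36.0 FPKM in 4OHT. These syntaxins of internal membranes stood just below Stx4a in level. Stx16, of the trans-Golgi network, had 26.97 FPKM in EtOH and 25.9 FPKM in 4OHT, and Stx12, of recycling endosomes, 19.8 FPKM in EtOH and 19.2 FPKM in 4OHT. Stx18, of the endoplasmic reticulum, had 13.8 FPKM in EtOH and 16.4 FPKM in 4OHT, the lowest change of the class, and 29.6% of its 50-base words are shared with other annotated transcripts. Stx6, which shuttles between the trans-Golgi network and endosomes, had 11.1 FPKM in EtOH and 11.8 FPKM in 4OHT. The autophagosome syntaxin Stx17 (5.40 FPKM in EtOH and 4.62 FPKM in 4OHT) and the late endosome syntaxin Stx8 (4.81 FPKM in EtOH and 4.39 FPKM in 4OHT) were the least abundant. The summed FPKM of these 8 genes was 165 in EtOH and 163 in 4OHT.

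**Figure D2:**
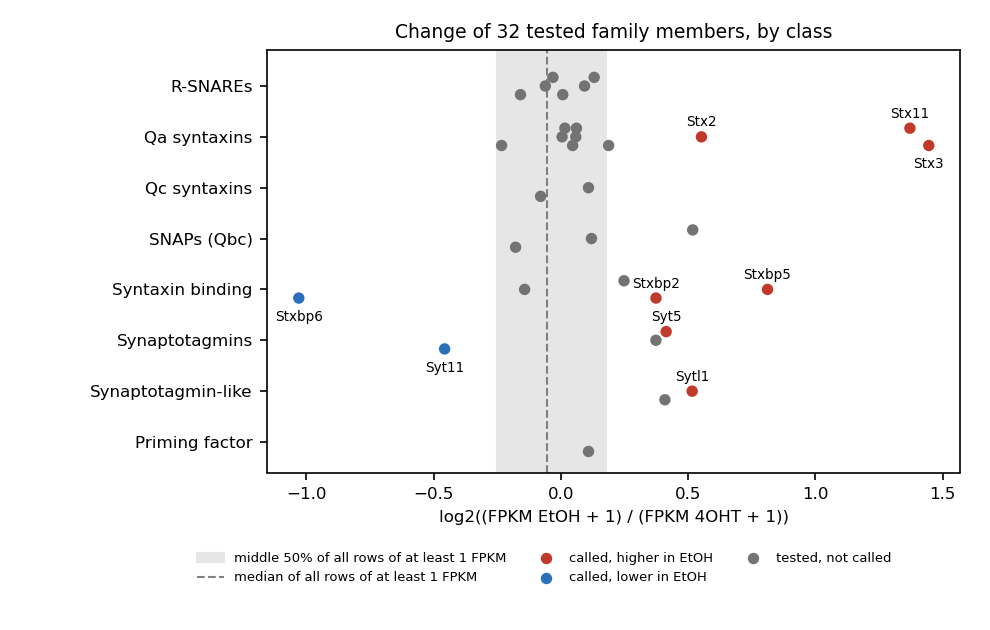
Change of 32 members tested by the authors, as log2((FPKM EtOH + 1)/(FPKM 4OHT + 1)), by class, with red points called higher and blue points called lower in EtOH and grey points not called. The grey band is the middle 50% of changes over all rows of at least 1 FPKM, and every R-SNARE lies inside it while Stx3, at 1.45, lies farthest to the right.

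SNAP proteins, which give a pair of helices to the Q-SNARE side, gave 0 Cuffdiff calls among 3 tested, against 22.5% of all tested rows. At an unadjusted p-value of at most 0.05 they gave 1, Snap29, against 31.5% of all tested rows. Snap23, the SNAP of non-neuronal cells, had 75.4 FPKM in EtOH and 69.3 FPKM in 4OHT (q = 0.653 in the authors' deposited table). It held 76.0% of the summed SNAP FPKM in EtOH and 77.0% in 4OHT. Snap29, which acts in autophagosome fusion and membrane traffic, had 13.8 FPKM in EtOH and 9.35 FPKM in 4OHT. Its log2 change of 0.52 was the highest among the 23 tested members that were not called (Cuffdiff q = 0.126, authors' deposited table). The Snap29 locus overlaps that of Pi4ka, a lipid kinase gene at 14.7 FPKM in EtOH and 15.4 FPKM in 4OHT. Snap47, a widely expressed SNAP of internal membranes, had 9.91 FPKM in EtOH and 11.3 FPKM in 4OHT. Snap25, the SNAP of neurons, was near 0, with 0.0117 FPKM in EtOH and 0.0105 FPKM in 4OHT, and Snap91 was listed at 0 in both.

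Syntaxin binding proteins changed in both directions, with 4 of 6 tested members called, against 22.5% of all tested rows. With only 6 tested genes this count is a description. Stxbp2, the Munc18 protein of granule-bearing cells, had 79.8 FPKM in EtOH and 61.3 FPKM in 4OHT. It lies on chromosome 8, 3631160 to 3643644 (mm9). The log2 change was 0.37 (Cuffdiff q = 0.0394, authors' deposited table). The call was lost at a q-value of at most 0.01 and also with a ratio of at least 1.5. Stxbp3a, the Munc18 protein that binds Stx4a, did not pass, with 8.71 FPKM in EtOH and 7.18 FPKM in 4OHT, and 9.27% of its words are shared, mainly with a pseudogene. Stxbp2 held 70.9% of the summed FPKM of the syntaxin binding genes in EtOH and 70.4% in 4OHT.

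The tomosyn gene Stxbp5 rose, and the amisyn gene Stxbp6 fell. Both encode soluble proteins with an R-SNARE-like stretch that can occupy syntaxins in place of a Vamp protein. Stxbp5, on chromosome 10, 9475345 to 9620838 (mm9), had 20.96 FPKM in EtOH and 11.5 FPKM in 4OHT. Its log2 change was 0.81 (Cuffdiff q = 7.22e-08, authors' deposited table). Stxbp6, on chromosome 12, 45953473 to 46175470 (mm9), had 0.252 FPKM in EtOH and 1.56 FPKM in 4OHT. The level was thus 6.17-fold higher in 4OHT, and its log2 change was -1.03 (Cuffdiff q = 4.18e-10, authors' deposited table). By transcript length this level rests on about 4.07 to 51.7 fragments in EtOH and 27.4 to 347 in 4OHT. Stxbp4, which binds Stx4a, had 0.806 FPKM in EtOH and 0.993 FPKM in 4OHT and did not pass. Stxbp5l, a second tomosyn, was at 0.00171 FPKM in EtOH and 0.00185 FPKM in 4OHT and was not tested.

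**Figure D3:**
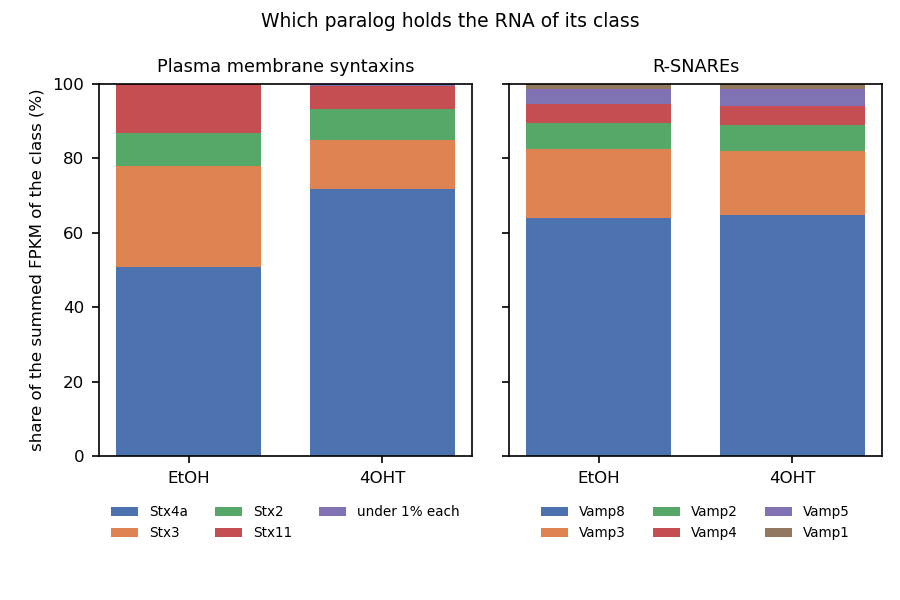
Share of the summed FPKM that each gene held within 2 classes, in percent, with EtOH left of 4OHT in each panel. Stx3 takes 27.2% of the plasma membrane syntaxins in EtOH and 13.3% in 4OHT, while Vamp8 takes 63.9% of the R-SNAREs in EtOH and 64.8% in 4OHT.

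Synaptotagmins, the calcium sensors of many fusion events, were nearly absent from these cells at the RNA level. Of 17 genes 3 were tested and 5 were listed at 0 in both conditions. The 14 that were not tested lay at or under 0.268 FPKM. Syt11, a synaptotagmin that does not bind calcium, at chromosome 3, 88548623 to 88576521 (mm9), was the only one of at least 1 FPKM, with 1.401 FPKM in EtOH and 2.30 FPKM in 4OHT. It fell by 0.46 on the log2 scale (Cuffdiff q = 0.0318, authors' deposited table), and was not called at 0.01. Syt5, a calcium-binding synaptotagmin at chromosome 7, 4491367 to 4498169 (mm9), had 0.457 FPKM in EtOH and 0.0935 FPKM in 4OHT. It was called higher (Cuffdiff q = 0.0262, authors' deposited table), on about 8.16 to 35.9 fragments in EtOH and 1.82 to 8.02 in 4OHT. Syt3, also calcium-binding, did not pass, with 0.959 FPKM in EtOH and 0.513 FPKM in 4OHT. Syt7, a sensor of lysosome exocytosis in other cells, was at 0.00323 FPKM in EtOH and listed at 0 in 4OHT. The summed synaptotagmin FPKM was 3.31 in EtOH and 3.29 in 4OHT, the lowest sum of the SNARE and partner classes.

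Sytl1, at chromosome 4, 132809005 to 132819002 (mm9), which encodes the Rab27 effector Slp1 known from neutrophil secretion, was the main synaptotagmin-like gene and rose. It had 31.9 FPKM in EtOH and 22.0 FPKM in 4OHT and held 87.9% of the summed FPKM of its class in EtOH and 88.6% in 4OHT. The log2 change was 0.52 (Cuffdiff q = 0.00690, authors' deposited table), and the call was lost with a ratio of at least 1.5. Sytl3 had 4.08 FPKM in EtOH and 2.82 FPKM in 4OHT and did not pass, with 21.1% of its words shared with other annotated transcripts. Sytl2, an effector of Rab27 in killer lymphocytes, had 0.300 FPKM in EtOH and 0.00480 FPKM in 4OHT and was not tested by the authors. That EtOH value rests on about 20.1 to 51.9 fragments, against less than 1 in 4OHT. Sytl4 was at 0.0106 FPKM in 4OHT and listed at 0 in EtOH, and Sytl5 was at 0.00945 FPKM in EtOH and listed at 0 in 4OHT. Unc13d encodes Munc13-4, the factor that primes granules and binds Rab27. It had 41.0 FPKM in EtOH and 38.02 FPKM in 4OHT and did not pass (q = 0.686 in the authors' deposited table).

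Few genes of the wider secretion machinery were called. A list of 64 other genes covered SNARE recycling, further SNAREs and related proteins, tethers and Rab GTPases of secretion. It had 48 tested members, of which Cuffdiff called 4 higher and 0 lower. That is 8.33% higher, against 12.0% of all tested rows, and 0%, against 10.5%, lower. The counts were the same at an unadjusted p-value of at most 0.05, against 15.6% higher and 15.8% lower of all tested rows. The median log2 change over the 46 genes of at least 1 FPKM was 0.04. NSF and its adaptors, which pull spent SNARE complexes apart, gave 0 calls among 4 genes under either rule. Over all tested rows these rules called 22.5% and 31.5%. Nsf itself had 21.1 FPKM in EtOH and 20.97 FPKM in 4OHT. Among 12 genes of further SNAREs and related proteins 1 was called, Sec22c, or 8.33%, against 22.5% of all tested rows. This SNARE-related gene of the endoplasmic reticulum had 8.31 FPKM in EtOH and 5.15 FPKM in 4OHT (q = 0.00698 in the authors' deposited table). The 11 other Sec1/Munc18 and HOPS tethering genes gave 0 calls under either rule, against 22.5% and 31.5%, with log2 changes between -0.24 and 0.26. The exocyst, a tether at the plasma membrane, had 1 call among 9 genes, or 11.1%, against 22.5% of all tested rows. This was Exoc6, with 40.0 FPKM in EtOH and 22.9 FPKM in 4OHT (q = 2.2e-06 in the authors' deposited table).

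The group of Rab GTPases of secretion and their effectors had 7 tested genes. Of these 1 was called, or 14.3%, against 22.5% of all tested rows. Rab3d, a Rab of secretory granules, rose to 25.9 FPKM in EtOH, against 17.3 FPKM in 4OHT (q = 0.00107 in the authors' deposited table). Rab27a, the Rab to which Sytl1 and Munc13-4 bind, had 91.4 FPKM in EtOH and 84.2 FPKM in 4OHT and did not pass. The largest change of the list was that of Lyst, the gene of a giant protein that limits the size of lysosomes and granules and is defective in Chediak-Higashi syndrome and beige mice. Lyst had 11.4 FPKM in EtOH and 3.34 FPKM in 4OHT, a log2 change of 1.52, and its q-value was listed at 0 in the authors' deposited table. Complexin genes, clamps of synaptic fusion, lay at or under 0.0380 FPKM in both conditions.

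**Figure D4:**
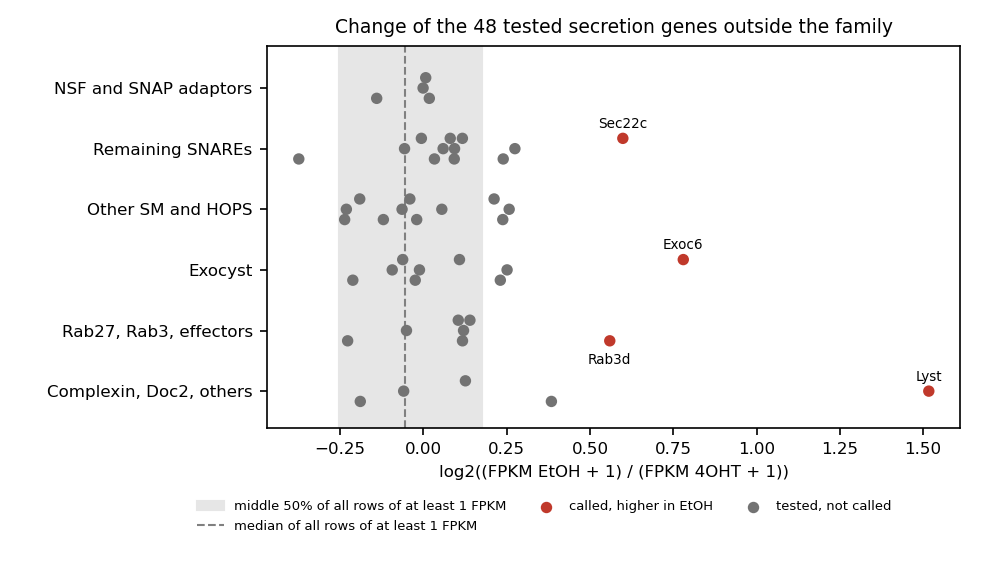
Change of the 48 tested genes of the secretion list, as log2((FPKM EtOH + 1)/(FPKM 4OHT + 1)), by role, with red points called higher in EtOH and grey points not called. Lyst, at 1.52, stands farthest from the band that holds the middle 50% of changes over all rows of at least 1 FPKM.

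Most marker genes of neutrophils, eosinophils, basophils and mast cells were called higher in EtOH. All 8 markers of the labelled progenitors were at or above 7.39 FPKM in both conditions, with sums of 679 FPKM in EtOH and 597 FPKM in 4OHT. Of these 8, Ptprc, Gata2 and Spi1 were called higher and Cd34 was called lower, at 45.8 FPKM in EtOH and 124 FPKM in 4OHT. Besides the 7 neutrophil markers given above, 5 of 6 eosinophil markers were called higher, with sums of 4687 FPKM in EtOH and 134 FPKM in 4OHT. All 7 basophil and mast cell markers were called higher, with sums of 3685 FPKM in EtOH and 824 FPKM in 4OHT. Monocyte and macrophage markers had 3 of 6 called higher and 1 lower, with sums of 171 FPKM in EtOH and 258 FPKM in 4OHT, and erythroid and megakaryocyte markers had 1 of 8 called higher and 3 lower, with sums of 173 FPKM in EtOH and 304 FPKM in 4OHT. The part of these shifts in the rise of Stx3, Stx11, Stxbp2 or Sytl1 was not tested. Markers of B cells, of T and NK cells and of neurons and endocrine cells each summed to at most 3.68 FPKM in either condition. Among them, Lck was called lower, with 1.51 FPKM in EtOH and 3.55 FPKM in 4OHT. Chga was called lower, with 0.0236 FPKM in EtOH and 0.794 FPKM in 4OHT. Syp was called higher, with 0.772 FPKM in EtOH and 0.362 FPKM in 4OHT. Ms4a1, Pax5 and Ebf1 of B cells, Cd3e and Cd3g of T cells, and Rbfox3 and Stmn2 of neurons were listed at 0 in both. Stroma and endothelium markers summed to 236 FPKM in EtOH and 244 FPKM in 4OHT, nearly all of it Pecam1, which blood cells also express, and Col3a1 and Cxcl12 were listed at 0 in both.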

How the data were processed

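RNA was sequenced from 2 samples, EtOH and 4OHT, each standing for 2 biological replicates. Per the submitters' processing notes, build mm9 was used with Cuffdiff 2.0.2, Bowtie2 2.0.0.7 and CASAVA 1.8.2. Annotation, strand setting, step order and library scaling were not given in the sources used here. Per the file headers, the authors deposited FPKM values for each condition, the ratio of EtOH over 4OHT, and a status, p-value and q-value for each gene. Of 23235 rows, 11865 carried a test, 11197 were not tested, 152 had too little data and 21 failed. Adjusting the deposited p-values by Benjamini-Hochberg gave the deposited q-values to within 1.7e-06. FPKM values are relative, so a rise of abundant RNAs lowers all others.

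Log2 changes used a pseudocount of 1, and list medians used rows of at least 1 FPKM in either condition. Members called at q of at most 0.05 or of at least 10 FPKM were described in full, the others by ranges or with their levels, and of the secretion list up to 4 called genes of each role. Nsf, Rab27a, Pi4ka and the complexins were named for their role or position after their values were seen. Single values of some members are not reported here, though all counts and class sums include them. Promoters were to be printed only for called members with the largest changes or the largest level of their class. Among these, Stx3, Stx11 and Stxbp2 were picked after their values were seen. A RefSeq gene table (GRCm38.p6) linked older symbols, and all 64 secretion and 68 marker entries were found. Start positions in the deposited table count from 0, since end minus start equals the RefSeq span in 7152 genes, and are printed counted from 1. To find shared sequence, 50-base words of each gene were looked up on both strands in GENCODE M21 transcripts of any other gene (56 of 57 members). Over 10% was shared in 4 members, Stx18, Sytl3, Syt4 and Syt12, and 0 were called, against 22.5% of all tested rows. Syt4 and Syt12 were not tested and could not be called, so this count is a description. Fragments behind a level were estimated from the shortest and longest coding transcripts. The members and lists were chosen with earlier results of these data known. Only the 2-fold rule on the log2(FPKM + 1) scale was tried on simulated data. Python 3.11.15 with pandas 2.3.3 was used.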

Additional observations from a re-analysis of the deposited data

How the results depend on the processing

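No paired analysis was possible because each condition has 1 value per gene, and leaving out a replicate was not possible for the same reason. The calls of Stx3, Stx11, Stx2, Stxbp5 and Stxbp6 were among those that also passed q of at most 0.01 and the ratio of at least 1.5. Counts were 5 higher and 2 lower at q of at most 0.01, 5 and 3 with the ratio, 10 and 3 at an unadjusted p of at most 0.05, and 6 and 3 over members of at least 1 FPKM, an alternative chosen after seeing the data. For the secretion list the 4 higher and 0 lower calls held under both stricter rules.

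The family median of 0.0769 was 0.0786 with a pseudocount of 0.1, 0.0591 with 5, 0.00458 without the filter, and 0.138 with EtOH scaled to a median change of 0 over all rows. Its sign turned to -0.0387 when the EtOH values were scaled to a sum equal to that of 4OHT, which moved the median of all rows from -0.06 to -0.16. The 3 changes of at least 2-fold became 1, Stx3, with a pseudocount of 5. All 10 called members and the 4 called secretion genes kept their direction under the sum scaling. It could not have reversed them, since it only multiplied every EtOH value by 0.921. Over members of at least 1 FPKM, Snap23 held 76.1% of its class in EtOH, Stxbp2 71.4% in EtOH and 71.2% in 4OHT (70.9% and 70.4% of all syntaxin binding genes), Sytl1 88.7% in EtOH, and Syt11 100% in both conditions, against 42.3% in EtOH and 69.8% in 4OHT over all synaptotagmins. Few fragments stood behind Syt5, Stxbp6 and Sytl2.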
